A study of Mus musculus with 14 samples.

Results

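The genes described here encode the cell-surface enzymes that break down extracellular ATP and the receptors that sense ATP, ADP and adenosine. There are 8 of them among the 29713 genes of the deposited tables: the ectonucleotidases Entpd1, Entpd2 and Nt5e, the nucleotide receptors P2rx7, P2ry1 and P2ry12, and the adenosine receptors Adora1 and Adora2b. They were taken as a named list, with their values in all 14 libraries already known, so their own changes are given as a description without a test. Cells release ATP through channels and vesicles, and it acts on ATP-gated ion channels (P2X receptors) and on receptors coupled to G proteins (P2Y receptors). Ectonucleotidases split ATP and ADP to AMP, and the 5'-nucleotidase encoded by Nt5e splits AMP to adenosine, which acts on its own receptors coupled to G proteins. In the brain this system is known for signalling among astrocytes, oligodendrocyte precursors, microglia and neurons, and Entpd2 and Nt5e also serve as surface markers of progenitor and glial populations.

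RNA-seq was done on cultured mouse neural stem cells of the OG2 strain, so that all groups share its Pou5f1 reporter transgene. A set of 12 libraries at passage 8 crossed 3 treatments with 4 stages: Naloxone, an antagonist of opioid receptors, Damgo, a peptide agonist of the mu opioid receptor, and the control that the labels call NC, each in undifferentiated cells and at day 2, day 4 and day 8 of differentiation. A further 2 libraries came from untreated stem cells at passage 13 and passage 8. Each condition had 1 library, so a stage has 3 libraries that differ in treatment, and a mean ± SD for a stage is taken over them. The labels do not say whether libraries came from separate cultures, so p-values measure only the spread between these libraries. Depth ranged from 4143030 to 9070533 estimated counts per library, and a level of 0.354 to 0.693 CPM (a count scaled to library size with TMM) rests on 3 counts. CPM is used below to compare libraries, and TPM, which accounts for transcript length, to compare genes.

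The labelled cell type was checked against its markers. The 6 proliferation markers summed to 2433 to 2496 TPM in undifferentiated cells, 273 to 280 at day 2, 198 to 204 at day 4 and 143 to 191 at day 8. The 8 stem and progenitor markers were all present, with Nes, an intermediate filament of progenitors, at 564 to 614 TPM in undifferentiated cells. These 8 summed to 10528 to 10963 TPM in undifferentiated cells, 9906 to 12714 at day 2, 7622 to 8325 at day 4 and 8230 to 9294 at day 8. The 8 astrocyte markers summed to 9551 to 10106 TPM at day 8, against 606 to 636 TPM in undifferentiated cells. The 7 markers of oligodendrocyte precursors summed to 2328 to 2491 TPM in undifferentiated cells, 3642 to 4084 at day 2, 3027 to 3105 at day 4 and 1145 to 1245 at day 8. Myelin markers summed to 80.7 to 83.4, 499 to 533, 398 to 425 and 305 to 339 TPM at these stages, and neuron markers to 558 to 573, 385 to 886, 1013 to 1063 and 250 to 306 TPM. These lists moved with several of the genes below, and their part in those values was not tested. In bulk RNA, fewer cells of a type and less RNA per cell cannot be told apart. The NC library at day 2 stood apart from its stage in some markers, with Map2, a neuronal cytoskeletal gene, at 754 TPM, against 242 TPM with Naloxone and 342 TPM with Damgo.

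Sequence around the start site is shown for the genes with the largest stage differences in each direction, Entpd2 and Adora2b, which were higher at each later stage, and Nt5e, which was lower. Each window runs from 250 bases before to 50 bases after the RefSeq start on GRCm38.p6 and is written 5' to 3' on the strand of the gene, with matches to the searched motifs in capitals. The windows are chr2:25395624-25395923 (plus strand) for Entpd2, chr11:62248734-62249033 (plus) for Adora2b and chr9:88327359-88327658 (plus) for Nt5e. The longest Nt5e transcript in GENCODE vM21 starts at 88327197, before its window, and the others start at 88327618 and 88327633, inside it.
Entpd2: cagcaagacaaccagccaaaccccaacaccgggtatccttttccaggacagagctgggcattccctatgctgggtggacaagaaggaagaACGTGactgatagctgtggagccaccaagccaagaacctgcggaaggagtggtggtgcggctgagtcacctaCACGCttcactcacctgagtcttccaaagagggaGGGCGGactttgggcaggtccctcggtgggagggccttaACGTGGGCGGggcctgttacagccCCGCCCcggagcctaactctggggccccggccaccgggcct
Adora2b: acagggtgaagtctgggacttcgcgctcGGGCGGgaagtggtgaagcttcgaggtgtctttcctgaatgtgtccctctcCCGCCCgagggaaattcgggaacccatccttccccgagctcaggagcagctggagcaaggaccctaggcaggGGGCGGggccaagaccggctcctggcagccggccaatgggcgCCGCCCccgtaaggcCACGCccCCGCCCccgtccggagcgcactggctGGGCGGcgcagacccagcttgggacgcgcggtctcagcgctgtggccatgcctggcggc
Nt5e: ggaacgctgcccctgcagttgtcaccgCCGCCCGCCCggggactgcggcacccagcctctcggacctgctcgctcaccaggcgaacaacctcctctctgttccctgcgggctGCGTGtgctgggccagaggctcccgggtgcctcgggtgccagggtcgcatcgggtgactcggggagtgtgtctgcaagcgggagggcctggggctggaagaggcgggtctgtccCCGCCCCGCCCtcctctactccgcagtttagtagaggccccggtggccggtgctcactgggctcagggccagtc
The motifs were the GC box GGGCGG, the short elements ACGTG (hypoxia response) and GCGTG (aryl hydrocarbon response), the cAMP response element TGACGTCA, and the STAT element TTCNNNGAA, each searched on both strands. Over all 32851 RefSeq promoter windows of this length, 35.7% held GGGCGG, 19.6% ACGTG, 32.4% GCGTG, 1.79% TGACGTCA and 8.3% TTCNNNGAA. The Entpd2 window held 3 matches to GGGCGG, 2 to ACGTG (at -160 and -15 from the start) and 1 to GCGTG (at -88), and the ACGTG at -15 shares a base with a GGGCGG at -11. The Adora2b window held 6 matches to GGGCGG and 1 to GCGTG (at -42), and the Nt5e window held 4 to GGGCGG, in overlapping pairs, and 1 to GCGTG (at -138). TGACGTCA and TTCNNNGAA were absent from the letters of these windows. All 3 windows were richer in G and C (62.0% for Entpd2, 70.0% for Adora2b, 71.0% for Nt5e) than the median window (52.7%). A match describes the sequence and was not tied to any factor or to the values below.

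Entpd2 was absent from the undifferentiated libraries and was the member with the largest difference at day 8. It encodes NTPDase2, a cell-surface enzyme that prefers ATP over ADP, and lies at chr2:25395874-25401321 on the plus strand (mm10, GENCODE vM21). No count was recorded in the 3 undifferentiated libraries. At day 2 it stood at 3.55, 2.69 and 4.35 CPM with Naloxone, Damgo and NC, at day 4 at 33.4, 29.1 and 31.3 CPM, and at day 8 at 117, 104 and 110 CPM. Each stage lay wholly above the one before it, and the 3 treatments stayed close together. With a floor of 3 counts over the undifferentiated group, the 73 counts of day 2 were at least 19.7-fold higher. Day 4 was 8.76 times day 2 (95% counting interval 6.84 to 11.4), and day 8 was 3.54 times day 4 (3.21 to 3.91), intervals that cover counting error only. Of the Entpd2 exonic bases, 612 (28.76%) are shared on the same strand with Npdc1, a neighbouring gene expressed in neural cells. Reads that fit both genes can be divided by the quantifier. The estimated Entpd2 counts were whole numbers in every library, and whether any reads were divided was not tested. Npdc1 stood at 253 to 294 CPM at day 8, against 66.1 to 71.8 CPM in undifferentiated cells, where Entpd2 had 0 counts.

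Entpd1 encodes NTPDase1 (CD39), which splits both ATP and ADP, and lies at chr19:40612366-40741602 on the plus strand. It peaked at day 2 and was lowest at day 8. In undifferentiated cells it stood at 11.9, 10.9 and 8.66 CPM with Naloxone, Damgo and NC, at day 2 at 22.3, 26.9 and 25.9 CPM, at day 4 at 11.0, 12.7 and 14.2 CPM, and at day 8 at 3.78, 5.70 and 3.93 CPM. Day 2 lay above and day 8 below every other stage, while the day 4 and undifferentiated values overlapped. The fitted log2 change (± SE) against undifferentiated cells was 1.24 ± 0.16 at day 2, 0.26 ± 0.18 at day 4 and -1.25 ± 0.20 at day 8. The day 4 value ran from 0.11 to 0.46 over libraries left out, and was highest without undifferentiated Naloxone.

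The TPM of Entpd1 moved with the transcript length that the quantifier assigned. The annotation used by the files has 10 transcripts for it, and the mean length ranged from 1385 to 4221 bases between libraries. Undifferentiated Damgo had 62 counts, a length of 1385 bases and 17.11 TPM, against 43 counts, 4221 bases and 4.11 TPM in undifferentiated NC. The TPM ratio of these libraries was thus larger than their ratio of counts. On the log2(TPM + 1) scale the day 4 against day 2 change of Entpd1 was -0.53, against -0.97 ± 0.16 from counts. The median over all genes tested also differed, at 0.20 on that scale and 0.0093 from counts. The part of length in the Entpd1 change was not tested. Adora2b, with 1 transcript, had the same length of 1845 bases in all libraries.

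**Figure D1:**
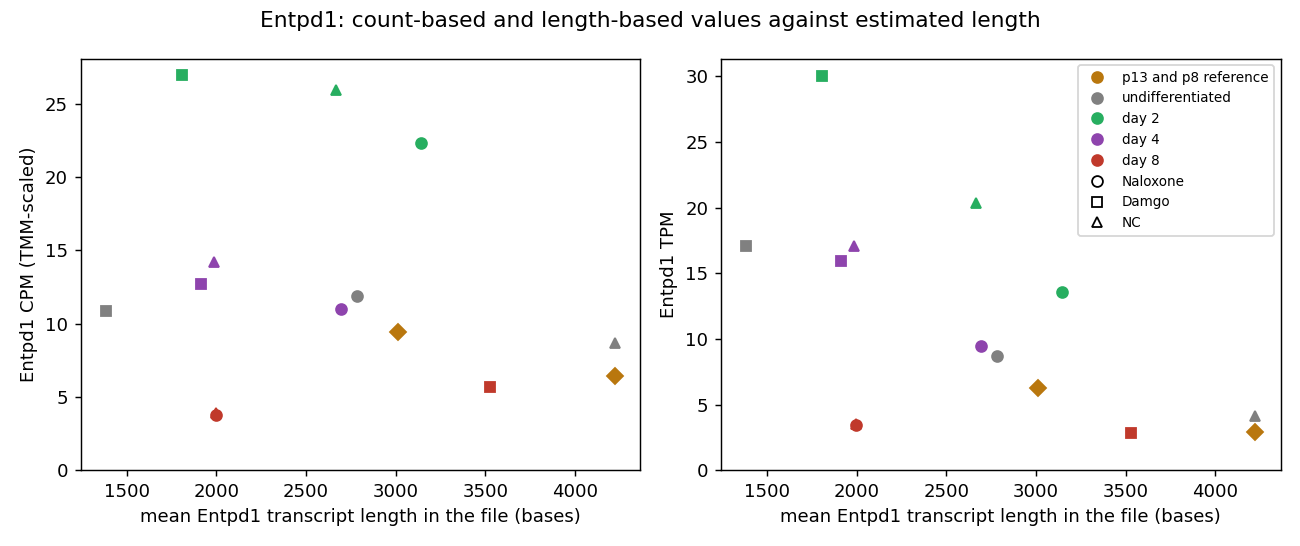
Entpd1 in all 14 libraries against the mean transcript length given in each file (bases), as CPM (left) and TPM (right), with colour for stage and shape for treatment, and diamonds for the untreated references. The day 2 libraries are the highest in CPM. In TPM, undifferentiated Damgo (17.11), day 4 NC (17.1) and day 4 Damgo (15.96) lie above day 2 Naloxone (13.61). The day 8 Naloxone and NC points coincide near 1998 bases.

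Nt5e encodes CD73, the enzyme that makes adenosine from AMP, and lies at chr9:88327197-88372092 on the plus strand. It was expressed in undifferentiated cells, at 13.1, 10.5 and 11.5 CPM with Naloxone, Damgo and NC, and near the detection limit afterwards. It stood at 0.760, 0.898 and 0.580 CPM at day 2, at 1.65, 1.62 and 0.992 CPM at day 4, and at 0.236, 0.691 and 2.06 CPM at day 8. All differentiated libraries lay below the undifferentiated ones, the day 4 values lay above those of day 2, and the day 8 values overlapped both. The day 8 values rest on 2, 4 and 11 counts with Naloxone, Damgo and NC. The fitted log2 change against undifferentiated cells was -3.96 ± 0.46 at day 2, -3.06 ± 0.43 at day 4 and -3.69 ± 0.45 at day 8. The day 8 value was -4.80 without day 8 NC and -3.01 without day 8 Naloxone. Day 8 against day 4 was -0.64 ± 0.61, but -1.75 without day 8 NC and 0.052 without day 8 Naloxone.

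P2rx7 encodes an ATP-gated channel that opens at high ATP and is known from microglia and other immune cells, and lies at chr5:122643911-122691432 on the plus strand. It was highest in undifferentiated cells, at 38.0, 37.8 and 41.9 CPM with Naloxone, Damgo and NC. It stood at 12.5, 14.5 and 13.9 CPM at day 2, at 7.90, 5.31 and 5.13 CPM at day 4, and at 6.02, 6.04 and 5.06 CPM at day 8. The first 3 stages did not overlap, and day 8 overlapped day 4. The fitted log2 change against undifferentiated cells was -1.53 ± 0.15 at day 2, -2.68 ± 0.17 at day 4 and -2.78 ± 0.16 at day 8. Day 8 against day 4 was -0.09 ± 0.20, and 0.17 without day 4 Naloxone.

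P2ry1 encodes an ADP receptor that raises intracellular calcium, also in astrocytes, and lies at chr3:61002795-61008982 on the plus strand. It was low until day 2 and high from day 4. Undifferentiated cells had 6.91, 8.58 and 6.85 CPM with Naloxone, Damgo and NC, and day 2 had 4.94, 5.93 and 8.26 CPM. Day 4 had 41.0, 38.1 and 37.9 CPM, and day 8 had 30.8, 29.9 and 38.4 CPM. The undifferentiated and day 2 values overlapped, and all 6 lay below every day 4 and day 8 library. Day 4 against day 2 was 2.63 ± 0.17 on the log2 scale, and day 8 against undifferentiated cells was 2.13 ± 0.17. Of its exonic bases, 992 lie opposite the antisense gene Gm37035, which had 17 counts over all 14 libraries. The kit named in the labels does not mark strand, so reads of such pairs cannot be told apart.

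P2ry12 encodes an ADP receptor that inhibits adenylyl cyclase and is a defining gene of resting microglia in the brain. It lies at chr3:59216272-59262871 on the minus strand. It had 3, 5 and 8 counts in undifferentiated cells with Naloxone, Damgo and NC, 2, 1 and 2 at day 2, 0, 0 and 2 at day 4, and 2, 0 and 0 at day 8. It did not pass the filter on low counts and has no fitted change. Day 8 against undifferentiated cells was a CPM ratio of 0.105 (95% counting interval 0.0117 to 0.446), from 2 and 16 counts. The exons of P2ry12 share 9 bases (0.35%) with Med12l on the opposite strand, which had 3362.2 counts over all libraries. Whether reads of Med12l are among the few counts of P2ry12 was not tested. Of 16 microglial markers, 14 stayed below 1 TPM in every library and summed to 0 to 1.66 TPM, and Cx3cr1, C1qa, C1qb, C1qc, Trem2 and Fcrls had no count at all. Among the markers above that level was Sall1, a transcription factor, at 28.7 to 31.1 TPM in undifferentiated cells.

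Adora1 encodes the A1 receptor, which inhibits adenylyl cyclase, and lies at chr1:134199223-134235431 on the minus strand. It was the most abundant member at every stage and higher at each later stage. It stood at 78.0, 81.1 and 77.2 CPM in undifferentiated cells with Naloxone, Damgo and NC, at 94.5, 99.0 and 99.1 CPM at day 2, at 142, 152 and 138 CPM at day 4, and at 754, 654 and 672 CPM at day 8. No stage overlapped another. The fitted log2 change against undifferentiated cells was 0.30 ± 0.08 at day 2, 0.86 ± 0.08 at day 4 and 3.13 ± 0.08 at day 8, so most of the difference lay between day 4 and day 8 (2.27 ± 0.08). The exons share 1162 bases with Mybph on the opposite strand, which had 9.5 counts over all libraries.

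Adora2b encodes the A2B receptor, which stimulates adenylyl cyclase and needs more adenosine than the A1 receptor, and lies at chr11:62248984-62266453 on the plus strand. It stood at 3.28, 4.73 and 3.83 CPM in undifferentiated cells with Naloxone, Damgo and NC, at 11.9, 13.3 and 7.54 CPM at day 2, at 23.3, 18.0 and 17.2 CPM at day 4, and at 68.4, 62.3 and 70.8 CPM at day 8. The stages did not overlap, and the day 2 NC library was the lowest of its stage. The fitted log2 change against undifferentiated cells was 1.44 ± 0.24 at day 2, 2.30 ± 0.23 at day 4 and 4.09 ± 0.21 at day 8.

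**Figure D2:**
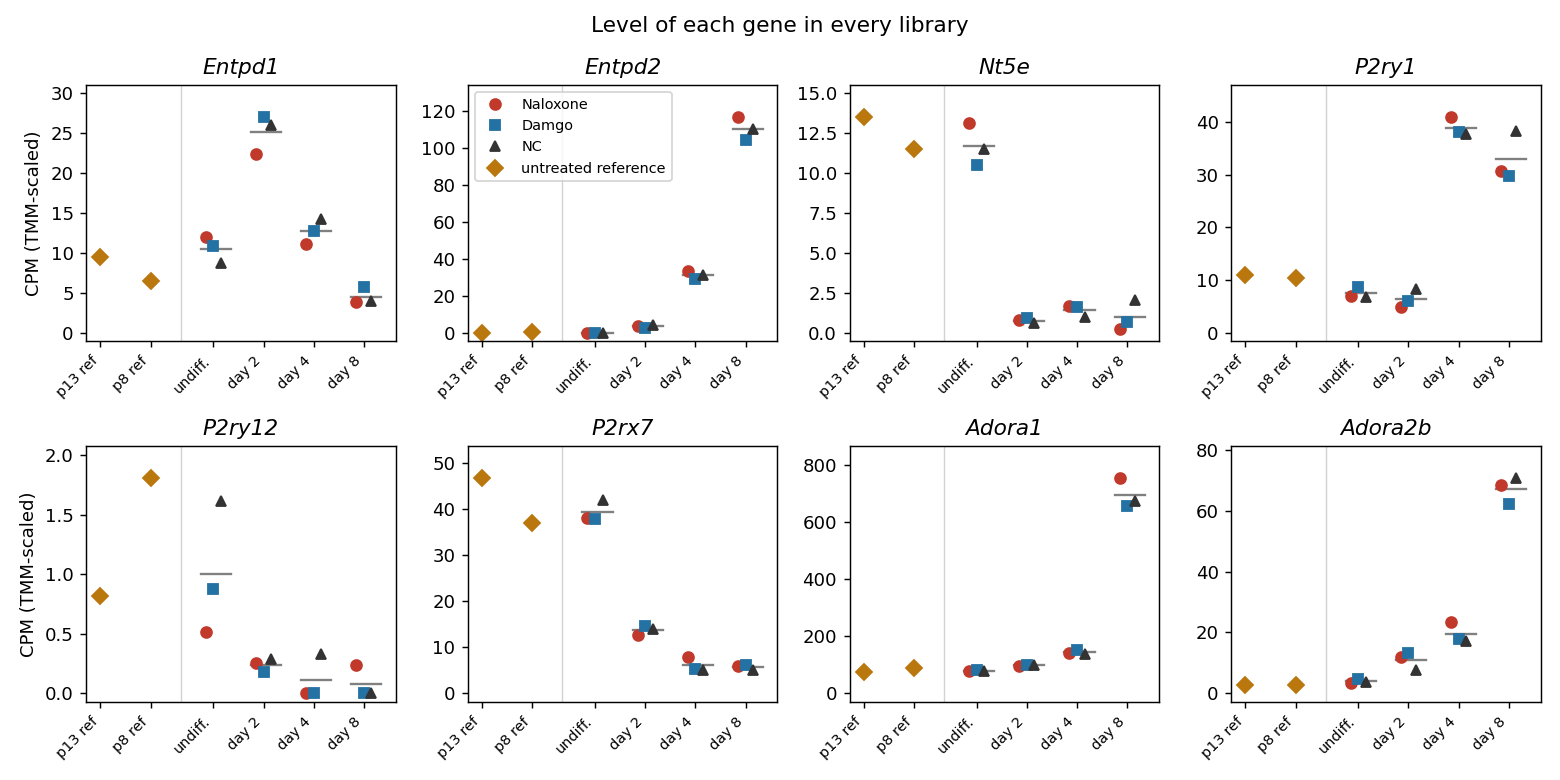
CPM (vertical axes, linear, a scale for each gene) of the 8 genes in every library, with untreated references at passage 13 and passage 8 on the left and the stages in time order, points for Naloxone, Damgo and NC, and a grey line at the mean of a stage. Entpd2, Adora1 and Adora2b are highest at day 8 (Adora1 654 to 754 CPM), P2ry1 is high from day 4, Entpd1 peaks at day 2, and Nt5e and P2rx7 are highest in undifferentiated cells and the references.

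Of the 7 members that passed the filter, 6 lay past the adjusted threshold of 0.05 at day 2 against undifferentiated cells, 4 higher and 2 lower, where 69.0% of all 13413 genes tested did (33.4% higher and 35.6% lower). At day 4 the count was 6, 4 higher and 2 lower (all genes 61.8%, 31.1% higher and 30.7% lower). At day 8 it was 7, 4 higher and 3 lower (79.8%, 41.5% higher and 38.3% lower). Between neighbouring stages it was 6 for day 4 against day 2, 4 higher and 2 lower (51.3%, 26.8% and 24.5%), and 4 for day 8 against day 4, 3 higher and 1 lower (67.9%, 36.7% and 31.1%). These contrasts were part of how the genes were picked, so the counts are no test of the members and nothing is read from them.

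The order of levels within a stage changed with differentiation. In undifferentiated cells the mean TPM ran from Adora1 (37.2) and P2rx7 (20.8) through Entpd1 (9.99), Nt5e (5.90), Adora2b (4.54) and P2ry1 (4.50) to P2ry12 (0.997) and Entpd2 (0). The neighbours from Entpd1 to P2ry1 did not differ beyond their ranges over the 3 libraries. At day 2, Adora1 (43.4 TPM) was followed by Entpd1 (21.3) and Adora2b (12.1), whose ranges overlapped, and at day 4, Adora1 (74.5) was followed by Entpd2 (39.0), with P2ry1 (28.0) and Adora2b (25.4) overlapping next. At day 8 the order was Adora1 (268 TPM), Entpd2 (104), Adora2b (66.3) and P2ry1 (20.8), none overlapping. Below them came Entpd1 (3.26) and P2rx7 (2.74), which overlapped, and Nt5e (0.427) and P2ry12 (0.07), which also overlapped.

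The make-up of each family differed between stages. Among the 4 cell-surface NTPDases, Entpd2 made up none of the summed TPM in undifferentiated cells, 8.51 to 20.9% at day 2, 69.6 to 81.2% at day 4 and 96.5 to 97.2% at day 8, and Entpd1 nearly all of the rest. The summed TPM of that family was 100.9 to 114.9 at day 8, against 4.11 to 17.11 in undifferentiated cells. The ends of the undifferentiated range are Entpd1 values of NC and Damgo, from 43 and 62 counts with assigned lengths of 4221 and 1385 bases. The Entpd1 shares carry the same limit of length. Among adenosine receptors, Adora1 held 87.1 to 88.2% in undifferentiated cells, 69.4 to 79.4% at day 2, 70.5 to 76.3% at day 4 and 78.9 to 81.2% at day 8, and Adora2b held 18.7 to 21.1% at day 8, against 9.85 to 11.4% in undifferentiated cells. Among P2X receptors, P2rx7 held 5.52 to 6.67% at day 8, against 49.4 to 67.2% in undifferentiated cells, while P2rx4 held 56.5 to 61.9% and P2rx6 30.1 to 33.7% at day 8. Among P2Y receptors, P2ry1 held 36.5 to 41.4% at day 2, where P2ry2 held 56.4 to 61.4%, and 80.8 to 88.6% at day 8. These shares are a description. Nt5e held 35.7 to 45.4% of the TPM of AMP-splitting ectoenzymes (Nt5e, Alpl and Acpp) in undifferentiated cells, 1.36 to 1.70% at day 2, 5.0 to 6.82% at day 4 and 3.10 to 30.3% at day 8, where their sum was 2.90 to 3.63 TPM.

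**Figure D3:**
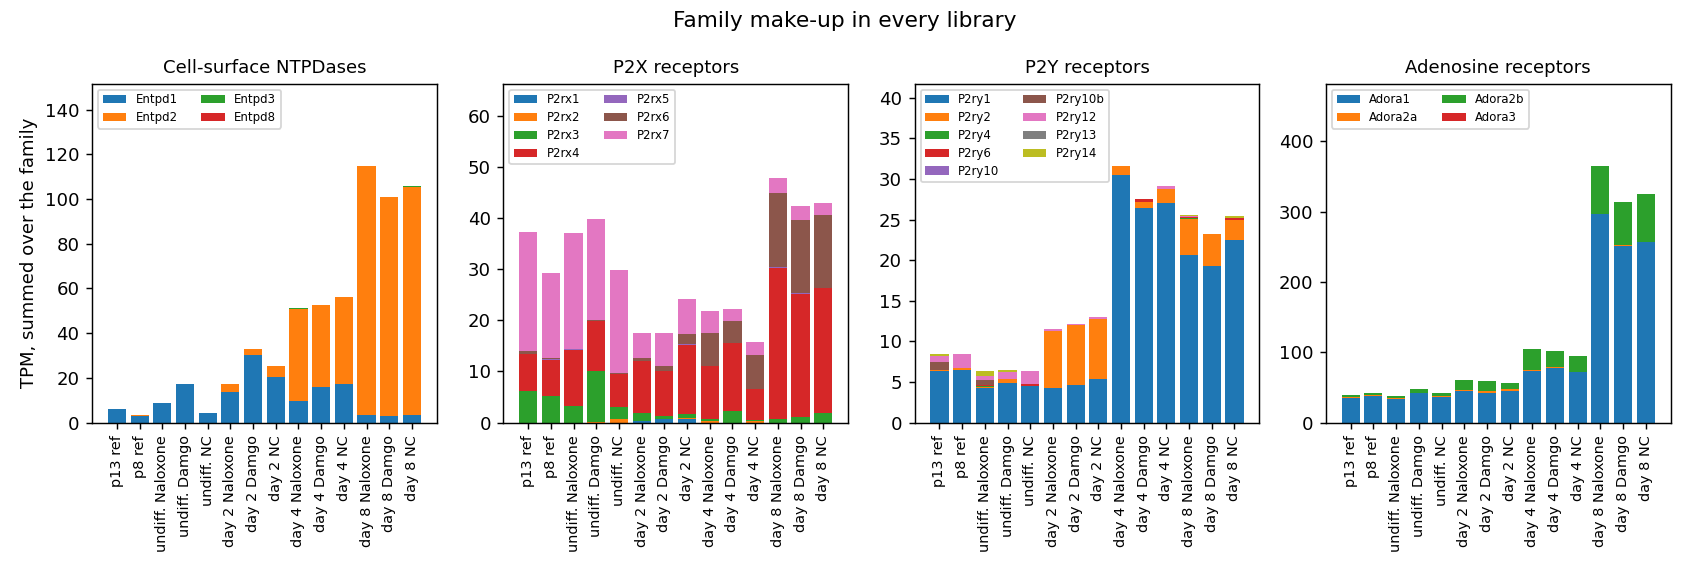
TPM summed over the genes of 4 families in each of the 14 libraries, stacked by gene, with the references on the left and the stages in time order. Entpd2 fills most of the NTPDase bars at day 8 (96.5 to 97.2%), P2rx7 gives way to P2rx4 and P2rx6, P2ry2 is a large share of P2Y receptors at day 2, and Adora1 is the largest adenosine receptor throughout.

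Other genes of the pathway were followed as lists of 61 symbols. The files held 58 of them, and 31 passed the filter and were tested with edgeR's quasi-likelihood test, adjusted by Benjamini-Hochberg over all 13413 genes. The lists, like the members, were drawn up with earlier results of these data known. At day 8 against undifferentiated cells, 17 of the 31 rose, 11 fell and 3 did not pass, where 41.5% of all genes tested were higher and 38.3% lower, with a median log2 change of 0.64 against 0.05 over all genes tested. At day 2, 18 rose and 7 fell (all genes 33.4% and 35.6%), with a median of 0.58 against -0.01 over all genes. At day 4, 14 rose and 9 fell (31.1% and 30.7%), with a median of 0.18 against -0.0023. Day 4 against day 2 gave 6 higher and 12 lower (all genes 26.8% and 24.5%), and day 8 against day 4 gave 18 higher and 4 lower (36.7% and 31.1%). With TPM in limma those splits were 10 higher and 8 lower, and 11 higher and 7 lower, and the median over all genes was 0.20 and -0.29 on that scale. Of the 27 genes not tested, 24 stayed below 1 TPM in every library, 6 had no count (P2ry10, P2ry13, Adora3, Nt5c1b, Panx3 and Calhm1), and the highest value was 2.3 TPM.

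Of 8 ectoenzymes other than the members, 3 were tested, and all 3 fell at day 8, as did 38.3% of all genes. Alpl, the tissue-nonspecific alkaline phosphatase, which also splits extracellular nucleotides down to adenosine, stood at 3.91 ± 0.973 CPM at day 8, against 10.7 ± 2.65 CPM in undifferentiated cells (SD, n = 3 libraries), a log2 change of -1.45 ± 0.24 (edgeR adjusted p = 0.000240). At day 2 it was higher, at 29.4 ± 5.17 CPM (1.44 ± 0.19, edgeR adjusted p = 8.18e-05). The pyrophosphatase genes Enpp3 and Enpp1, whose enzymes split ATP directly to AMP, were below 1 CPM in every day 8 library, with log2 changes of -4.17 ± 0.52 and -3.04 ± 0.51. Of 5 NTPDases and nucleotidases of internal membranes or secretion, 3 rose at day 8, 1 fell and 1 did not pass, and 4 of 5 past the threshold is close to the 79.8% of all genes. Entpd5, an enzyme of the endoplasmic reticulum, stood at 198 ± 10.7 CPM at day 8, against 27.7 ± 4.76 CPM in undifferentiated cells (2.83 ± 0.12). Entpd6 (1.12 ± 0.12) and Cant1, a Golgi nucleotidase (0.89 ± 0.08), were also higher, and Entpd7 was lower (-0.78 ± 0.23).

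Among the other receptors, the P2X genes P2rx6 and P2rx4 rose at day 8 and P2rx3 fell. P2rx4, an ATP-gated channel, stood at 21.6 ± 1.99 CPM at day 8, against 6.46 ± 0.364 CPM in undifferentiated cells (1.73 ± 0.15), with no overlap with any other stage. P2rx6 stood at 18.9 ± 0.233 CPM, against 0.193 CPM in undifferentiated cells, which rests on 3 counts, a ratio of 103 (95% counting interval 35.1 to 503). Its fitted log2 change was 7.39 without undifferentiated NC and 5.96 without undifferentiated Naloxone, around 6.54 ± 0.40. P2ry2, a receptor for ATP and UTP, was the only other P2Y gene tested, and it was highest at day 2, at 9.75 ± 1.20 CPM, against 0.350 ± 0.464 CPM in undifferentiated cells (4.67 ± 0.50, edgeR adjusted p = 1.7e-05). It fell by day 4 (-2.59 ± 0.39 against day 2) and stood at 5.65 ± 1.33 CPM at day 8 (3.90 ± 0.54 against undifferentiated cells, and 5.60 without undifferentiated Damgo, which holds most of its 6 undifferentiated counts). Adora2a, an adenosine receptor that stimulates adenylyl cyclase, also peaked at day 2, at 3.91 ± 0.821 CPM, against 0.896 ± 0.303 CPM in undifferentiated cells (2.07 ± 0.33, edgeR adjusted p = 0.000278), and fell by day 4 (-2.42 ± 0.35 against day 2). The day 8 falls of P2rx3 (-1.51 ± 0.55) and Adora2a (-1.50 ± 0.51) did not pass with DESeq2. That of P2rx3 was also lost without undifferentiated NC, undifferentiated Damgo, day 8 Naloxone or day 8 Damgo (range over libraries left out -1.65 to -1.29), and that of Adora2a without undifferentiated Naloxone, day 8 NC or day 8 Naloxone (-1.88 to -1.11).

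Of 12 genes of adenosine uptake and metabolism, 6 rose at day 8, 4 fell and 2 did not pass, shares close to the 41.5% higher and 38.3% lower of all genes. Slc29a1, the equilibrative nucleoside transporter ENT1, stood at 9.01 ± 2.10 CPM at day 8, against 71.1 ± 0.714 CPM in undifferentiated cells, a log2 change of -2.98 ± 0.15 (edgeR adjusted p = 2.3e-08), and it was already lower at day 2 (-2.22 ± 0.14). Ada, which deaminates adenosine, was lower (-2.10 ± 0.31) and Adk, adenosine kinase, which removes adenosine by phosphorylation, was higher, at 130 ± 9.38 CPM at day 8, against 69.2 CPM in undifferentiated cells (0.91 ± 0.11). Adk had been lower at day 2 (-0.83 ± 0.11). Ampd3, an AMP deaminase, was higher (2.41 ± 0.09), and so was Pnp2 (3.05 ± 0.46), a near copy of Pnp whose reads may be divided between both genes. Adk, and Panx1 below, are named beyond the rule for named genes, after their values were seen.

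Of 6 genes of ATP release, 5 rose at day 8 and 1 fell (all genes 41.5% higher and 38.3% lower). The gene that fell was Panx1, a pannexin, at -0.25 ± 0.09. Gja1, which encodes connexin 43, the main gap junction protein of astrocytes, stood at 2182 ± 251 CPM at day 8, against 16.9 CPM in undifferentiated cells (7.003 ± 0.103, edgeR adjusted p = 4.1e-11). Ank, a membrane protein linked to export of ATP and pyrophosphate, was also higher (1.96 ± 0.09). Panx2, a pannexin, and Gjb6, connexin 30 of astrocytes, were higher as well, from 3 and 1 counts in undifferentiated cells. The ratio of CPM was 69.7 for Panx2 (95% counting interval 23.6 to 340.3) and 62.1 for Gjb6 (10.8 to 2487). Over libraries left out, the fitted log2 change ran between 5.33 (without undifferentiated Naloxone) and 6.96 (without undifferentiated NC) for Panx2, and between 5.01 (without undifferentiated NC) and 7.80 (without undifferentiated Naloxone) for Gjb6. Gjb6 had 2.12 to 5.43 CPM at day 8. The astrocyte marker list moved in the same direction (9551 to 10106 TPM at day 8, against 606 to 636 TPM in undifferentiated cells), and its part was not tested. Markers of mesenchyme and pericytes also moved, with 61.0 to 77.7 TPM summed at day 8, against 0.93 to 7.76 TPM in undifferentiated cells, and Pdgfrb at 27.5 to 34.8 TPM at day 8, and their part was not tested. Of 7 endothelial markers, Cldn5 and Cdh5 had no count in any library, and 3 reached 1 TPM in at least 1 library. The 7 summed to 4.87 to 7.48 TPM at day 8, against 1.47 to 1.52 TPM in undifferentiated cells, and their part was not tested.

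**Figure D4:**
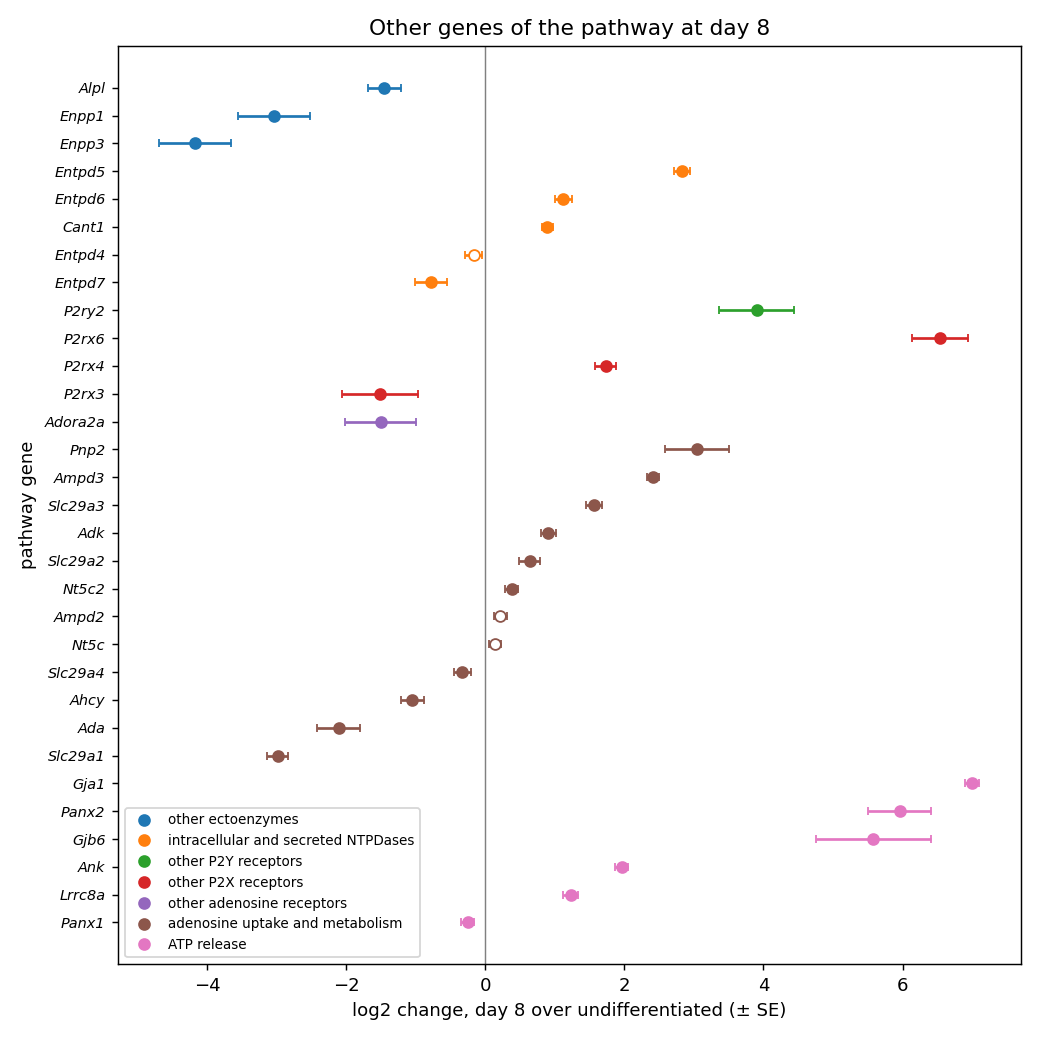
Fitted log2 change at day 8 over undifferentiated cells (horizontal axis, ± SE) of the 31 tested pathway genes that are not members, grouped by list and ordered by size, with filled points past the adjusted threshold of 0.05 and hollow points not past it. The ectoenzymes lie left of 0, 5 of 6 genes of ATP release lie right of it with Gja1 at 7.003, and Slc29a1 is the lowest of the uptake genes at -2.98.

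Naloxone and Damgo were compared with NC over the 4 stages. None of the 13413 genes passed the adjusted threshold for Naloxone (0.0%) or for Damgo (0.0%), with edgeR, DESeq2 or limma, and 1344 and 325 genes had an unadjusted edgeR p under 0.05. These numbers depended on single libraries. For Naloxone the number ran from 372 without day 2 Naloxone to 2112 without day 4 NC. It was also lower without day 8 Naloxone (422), day 2 NC (531) or day 8 NC (771). Higher numbers came without day 4 Naloxone (1934), undifferentiated Naloxone (1707) or undifferentiated NC (1691). For Damgo it ran from 156 without day 2 Damgo to 862 without day 4 NC, with 195 without day 2 NC, 204 without day 4 Damgo, 562 without undifferentiated NC and 591 without day 8 Damgo. Without day 8 Damgo, 2 genes passed for Damgo, neither a member nor another pathway gene, and none of the 31 other pathway genes passed for either drug. The 7 members with a fitted change had log2 changes between -0.20 and 0.22 for Naloxone and between -0.17 and 0.17 for Damgo. For Naloxone these were 0.03 ± 0.11 for Entpd2, -0.08 ± 0.15 for Entpd1, -0.12 ± 0.41 for Nt5e, -0.20 ± 0.14 for P2ry1, 0.06 ± 0.14 for P2rx7, 0.04 ± 0.06 for Adora1 and 0.22 ± 0.16 for Adora2b. For Damgo they were -0.17 ± 0.12 for Entpd2, 0.13 ± 0.15 for Entpd1, -0.16 ± 0.43 for Nt5e, -0.15 ± 0.14 for P2ry1, 0.02 ± 0.14 for P2rx7, 0.04 ± 0.06 for Adora1 and 0.17 ± 0.17 for Adora2b. With Damgo, Entpd2 was lower than with NC at day 2, day 4 and day 8, and both had no count in undifferentiated cells. P2ry12, with few counts, was likewise higher with Damgo than with NC at 0 of 4 stages. The SE of Nt5e, which had few counts after differentiation, leaves room for larger differences than that of Adora1. A change that differs between stages would add to the spread of this model and was not tested separately.

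The untreated references at passage 13 and passage 8 had 1 library each and were compared without a test, as a ratio of CPM with its 95% counting interval. Adora1 had 75.0 CPM at passage 13, against 88.1 CPM at passage 8 (ratio 0.852, interval 0.755 to 0.961), and P2rx7 had 46.6 CPM, against 36.8 CPM (1.27, 1.07 to 1.51). Entpd1 had 9.41 CPM, against 6.41 CPM (1.47, 0.978 to 2.23), and Nt5e had 13.5 CPM, against 11.5 CPM (1.17, 0.856 to 1.62). For P2ry1 (1.05, 0.748 to 1.49), Adora2b (1.09, 0.542 to 2.23) and P2ry12 (0.453, 0.137 to 1.34) the interval held a ratio of 1. Entpd2 had 0 counts at passage 13 and 2 at passage 8. None of the 8 genes differed 2-fold when 0.5 CPM was added to both values, a size that 2.59% of 13855 genes reached. Both references carried the undifferentiated pattern, with Nt5e and P2rx7 well above, and Adora1 and Adora2b below, every day 4 and day 8 library.

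For members with a mean of at least 5 CPM, the genes with the most similar profile were taken from 10712 candidates by the root mean square difference of mean-centred log2(CPM + 1) over the 14 libraries. All profiles share the same libraries and stages. Entpd2 was closest to Lgi4 (0.312), Synpo2 (0.340) and Slc14a1 (0.397), genes with at most 0.126 CPM in undifferentiated cells. P2rx7 was closest to Itga5 (0.177), Selenoh (0.182) and Tpm4 (0.211). Adora1 was closest to Sdc2 (0.173), Tagln3 (0.179) and Atp6v0a2 (0.180), and Adora2b to Hebp1 (0.228), Fam129b (0.273) and St8sia2 (0.306). P2ry1 was closest to Tmem47 (0.332), Socs2 (0.338) and Spag1 (0.373), and Entpd1 to Nhsl1 (0.251), Ncan (0.259) and Jarid2 (0.265). No member was among the 3 closest genes of another member, but Nt5e and P2ry12 lay below that mean and were not candidates.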

How the data were processed

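RNA-seq libraries were made with the Illumina TruSeq RNA kit from Trizol-extracted total RNA, per the labels. Reads were processed with Bowtie, RSEM and the build mm10, per the submitters' processing notes. Their versions and settings were not given in the sources used here. Estimated counts deposited by the authors (expected counts per gene, per the file headers) were not whole for 10.4 to 13.1% of genes and were rounded here. Their deposited TPM, per the file headers, accounts for length. Of 29713 identifiers, 29202 had a symbol in GENCODE vM21. All 8 members matched in the RefSeq promoter table.

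The spread came from edgeR's quasi-likelihood test with TMM scaling and filterByExpr on 12 libraries, with stage and treatment as additive terms and 6 residual degrees of freedom. It covered 13413 genes, with Benjamini-Hochberg adjustment and a threshold of 0.05. The SE of a fitted log2 change from counts is an approximation, its absolute value divided by the square root of the F statistic of that test. The passage libraries were described only. The value of 1 microglial marker is not reported here. Counting intervals are exact conditional binomial intervals at 95%. The code was tested on simulated data. The tools were DESeq2 1.42.0, edgeR 4.0.16 and limma 3.58.1 under R 4.3.3.

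The members and gene lists were chosen with earlier results of these data known. All members are reported, and for each pathway list up to 4 genes past the threshold at day 8 with the largest change are named. Adk and Panx1 are named beyond this rule. The alternatives were DESeq2 size factors, DESeq2, no filter, limma on log2(TPM + 1) or log2(TPM + 0.1), no treatment term, the passage 8 reference added, and each library left out.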

Additional observations from a re-analysis of the deposited data

How the results depend on the processing

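No paired analysis was possible because the labels give no replicate numbers. Treatment was a term of the fit, and the stage counts without it stayed within 1.5 times. The counts of pathway genes and of all genes past the threshold stayed within 1.5 times their value under every alternative run, except all genes for Damgo against NC, which ranged from 0 to 2 over libraries left out. The 2 came without day 8 Damgo, and no pathway gene was among them. Day 4 against day 2 was past the threshold for 4967 to 7806 genes over libraries left out. For P2ry1 at day 2 the log2 change was -0.25 from counts and 0.058 and 0.068 with TPM and pseudocounts of 1 and 0.1. The changes of day 8 against day 4 that turned sign were those of P2rx7 (0.17 without day 4 Naloxone, lowest -0.23) and Nt5e (0.052 without day 8 Naloxone, and -1.75 without day 8 NC). The cause was not tested. Adora1 at day 2 was 0.22 and 0.23 with TPM, against 0.30 from counts. Entpd1 for day 4 against day 2 was -0.53 and -0.56 with TPM, against -0.97 from counts. Its length estimate differs between libraries, and the median over all genes tested was also higher on log2(TPM + 1) (0.20, against 0.0093 from counts). P2ry1 for day 8 against day 4 was -0.25 from counts, -0.41 and -0.43 with TPM, and -0.28 without day 2 NC. With TPM the share of calls that were higher was 62.3% at day 4 (50.3% from counts), 75.3% for day 4 against day 2 (52.2%) and 29.5% for day 8 against day 4 (54.1%), and the median over all genes moved to 0.16 at day 4 and -0.16 at day 8. Depth limits P2ry12 and, after differentiation, Nt5e.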
